A study of Drosophila melanogaster with 46 samples.

Results

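The genes examined here were 34 genes of *Drosophila melanogaster* that encode the precursors of neuropeptides and peptide hormones, chosen by name from the 17490 genes of the count table, with the insulin-like peptides left out. All 34 were found, and 27 of them were expressed highly enough in heads to be tested. They lie on chromosome 3R (15 genes), 2L (7), 3L (6), 2R (5) and X (1). By the study's account, heads of male and female flies were pooled at each timepoint, every 4 h over 2 days of light/dark cycles. Each pool was sequenced as 1 library per group and timepoint, and RNAs that mark the sexes differed between pools, as given below. The groups were *WT*, the isogenic strain *Canton-S w1118 (iso1CJ)*, at Day 27 (10 libraries, since ZT28 and ZT40 were not analysed here), the sleep mutants *inc1* at Day 27 (12 libraries) and *wakeD2* at Day 27 (12 libraries), and *WT-old*, the same *WT* strain at Day 49 (12 libraries). Both mutants had been backcrossed to the *WT* strain, so all 46 libraries share the *w1118* background. ZT is zeitgeber time, counted from lights-on at ZT0 with lights-off at ZT12, and the second day runs from ZT24 to ZT44. No timepoint was sampled in more than 1 pool of a group, so the timepoints of a group stood in for its replicates. The main fits took all 46 libraries together, so p-values measure the spread between the pools of all groups, those of *WT-old* included.

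Neuropeptides are cut from larger precursor proteins in secretory neurons and endocrine cells, packed into dense core vesicles, and act on G protein-coupled receptors of cells that may lie far from the site of release. Many fly precursors are made by a small number of identified neurons. *Pdf*, for example, is made in the head by lateral clock neurons, and its peptide keeps clock cells in step and promotes wakefulness. Others are made in the gut or in fat tissue as well as in the brain, and report feeding state. The mRNA level of a precursor in a pool of whole heads is a sum over such cells, and says nothing of how much peptide is released.

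Reads counted on genes totalled 12630462 to 29802881 per library (median 22856683), at which 3 counts amount to 0.101 to 0.238 CPM (counts scaled to the library size), a floor for counting error only. The mutated genes were low in the groups labelled as their mutants: *inc* was at 8.53 to 15.1 CPM in *inc1* and 66.5 to 104 CPM in *WT*, and *wake* at 35.7 to 52.0 CPM in *wakeD2* and 66.2 to 80.1 CPM in *WT*. The summed neuron markers *elav*, *nSyb*, *Syt1* and *brp* lay between 1966 and 5007 CPM, and the photoreceptor markers *ninaE*, *trp* and *norpA* between 32364 and 51779 CPM. RNA of tissues outside the head was also present, where the median marker of the male accessory gland exceeded 1 CPM in 3 of 10 *WT*, 4 of 12 *inc1*, 11 of 12 *wakeD2* and 1 of 12 *WT-old* libraries. The 6 *WT-old* libraries of the dark hours differed from all other libraries in RNAs that mark the sexes. The yolk protein genes *Yp1* to *Yp3*, expressed in female fat body, summed to 101 to 6531 CPM in these libraries and to 42216 to 65428 CPM in the 6 *WT-old* libraries of the light hours. The male dosage compensation RNAs *roX1* and *roX2* summed to 1280 to 1359 CPM in the former and 623 to 829 CPM in the latter. In *WT* the *Yp* sum was 45926 to 74143 CPM and the *roX* sum 692 to 859 CPM. In *inc1* the *Yp* sum was 68787 to 136100 CPM and the *roX* sum 472 to 753 CPM.

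The levels of the precursors in heads spanned several orders of magnitude. Levels are compared between genes as the median CPM over all 46 libraries per kb of exon. *Nplp2* stood far above the rest at 8009 CPM per kb, at 2265 to 10412 CPM in single libraries. *Nplp2* (chromosome 3L, 13356376 to 13357223 on the Release 6 assembly) is named as a neuropeptide-like precursor. The next was *Ms* at 321 CPM per kb, the precursor of myosuppressin, which slows contraction of the gut and heart. Then followed *Dsk*, the precursor of the cholecystokinin-like drosulfakinins that signal satiety, at 170 CPM per kb, and *Capa*, the precursor of capability peptides that act on the renal tubules, at 166 CPM per kb.

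A set of 9 precursors then lay within 74.5 to 119 CPM per kb, in the order *Crz*, *CCHa2*, *Pdf*, *AstC*, *sNPF*, *Mip*, *Dh31*, *Hug* and *NPF*. Neighbours in this order, such as *CCHa2* and *Pdf* (both at 113 CPM per kb) or *Mip* and *Dh31* (95.6 and 95.0 CPM per kb), lay closer together than the spread of either over libraries. From 57.9 to 31.1 CPM per kb came *Dh44*, *Proc*, *Nplp3*, *Nplp1*, *AstA*, *Tk* and *ITP*. At the low end of the tested genes were *SIFa* (19.5 CPM per kb), *FMRFa* (14.4), *Nplp4* (11.3), *Lk* (8.62), *CCHa1* (5.77), *CNMa* (3.28) and *CCAP* (1.09), the precursor of crustacean cardioactive peptide, which had only 5 to 67 counts per library. Exons of *ITP*, *Lk*, *SIFa* and *CCAP* overlap an annotated gene on the opposite strand, by 582 bases in the case of *Lk*, the precursor of leucokinin, a diuretic peptide. The strand setting used in the counting is not given in the sources used here, so reads of such overlaps cannot be assigned to 1 gene.

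**Figure D1:**
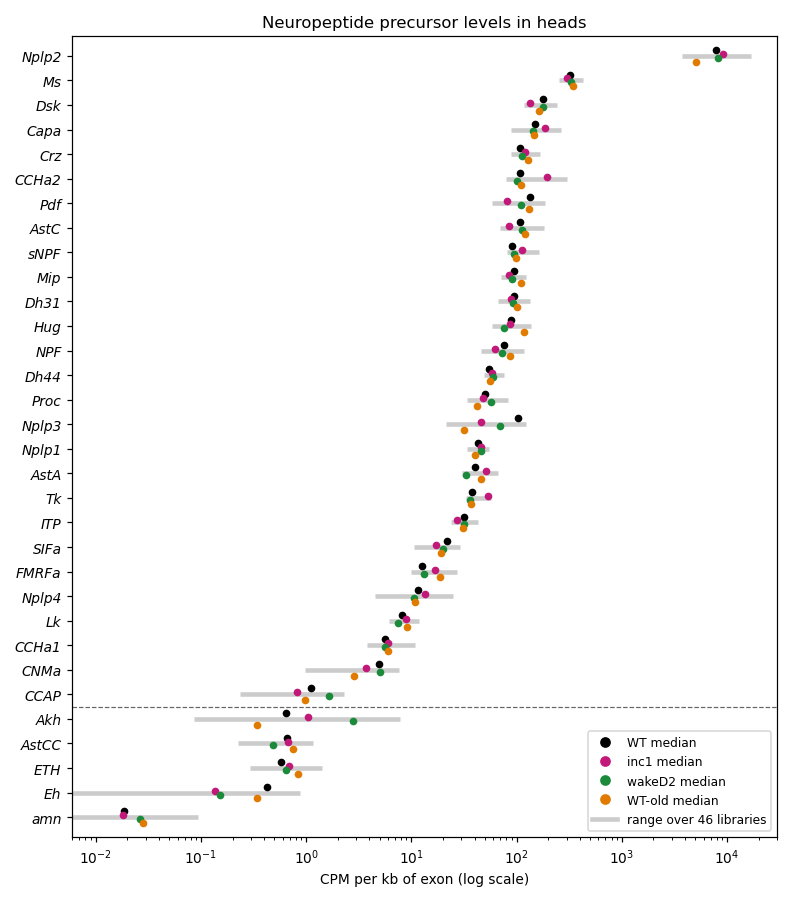
Level of the 32 precursors whose median over the 46 libraries was above 0, in CPM per kb of exon on a log scale. Points are the group medians, grey bars the range over all libraries (bars that meet the left edge reach 0), and the dashed line separates the 27 tested genes from those too low to be tested; *Nplp2* stands at 8009 CPM per kb and *CCAP*, the lowest tested gene, at 1.09.

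The remaining 7 members were under 1 CPM in more than 28 libraries and were not tested. The bursicon subunit genes *Burs* and *Pburs*, whose hormone hardens the cuticle of newly emerged flies, had no count in 32 and 37 of 46 libraries and at most 3 and 2 counts in any. *Eh* and *ETH*, whose peptides drive ecdysis, had 0 to 15 and 5 to 26 counts per library, and 683 bases of *ETH* exons overlap an annotated antisense RNA, whose reads cannot be told apart from its own here. *amn*, named for its role in memory, had 0 to 8 counts, with 140 bases of exon overlapping a gene on the opposite strand, and *AstCC*, a paralogue of *AstC*, had 6 to 29. *Akh*, the precursor of adipokinetic hormone, is made by the corpora cardiaca, endocrine glands that lie outside the brain. It reached 0.0461 to 0.752 CPM in *WT* (median 0.343), 0.197 to 2.91 CPM in *inc1* (median 0.562), 0.275 to 4.16 CPM in *wakeD2* (median 1.48) and 0.0885 to 0.314 CPM in *WT-old* (median 0.183). All 10 libraries with *Akh* above 1 CPM were among the 19 with accessory gland markers above 1 CPM, and none of the other 27 libraries exceeded 0.772 CPM. Without any filter on low counts (16368 genes), the log2 fold change of *Akh* in *wakeD2* against *WT* was 2.42 by edgeR's quasi-likelihood test (adjusted p = 0.000151). What the tissue outside the head contributed to this difference was not tested.

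The first comparison asked which precursors differed in time-averaged level between *inc1* and *WT*. *inc1* flies sleep little and carry a mutation in *insomniac*, whose product works with the Cul3 ubiquitin ligase. Of the 27 tested precursors, 8 were higher in *inc1* (29.6%, against 14.9% of all 9969 genes tested) and 10 were lower (37%, against 18.5% of all genes). *Pdf*, *Dsk* and *Nplp3* were among those that fell, and *CCHa2*, *Tk* and *sNPF* among those that rose. The median log2 fold change over the 27 was -0.04, beside 0.02 over all genes. Group and time of day entered an edgeR quasi-likelihood fit, and p-values were adjusted over all genes by the method of Benjamini and Hochberg. The *WT* libraries are the same in this and the following comparisons. The *Yp* sum reached higher and the *roX* sum lower values in *inc1* than in *WT*, and all 18 precursors also passed the test when the *Yp* level entered the model. Since the *Yp* term was fitted over all libraries, with the dark-hour *WT-old* pools far below the rest, what the sex mix contributed in *inc1* was not tested.

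Among the precursors tied to clock output and sleep, *Pdf* (chromosome 3R, 26455462 to 26456141) changed most. It was at 72.3 to 106 CPM in *WT* (median 91.5) and 40.2 to 67.5 CPM in *inc1* (median 55.0). No *inc1* library reached the lowest *WT* library. Ranges of this kind failed to overlap for 2 of the 27 precursors, *Pdf* and *Dsk*, and for 2.11% of all genes. The log2 fold change of *Pdf* was -0.75 (SE 0.066, adjusted p = 5.22e-12). In pooled heads, fewer cells that express a precursor and less RNA per cell cannot be told apart. *sNPF*, the precursor of short neuropeptide F, which is widely expressed in the brain and promotes feeding and sleep, moved the other way. It was at 201 to 278 CPM in *WT* (median 223) and 235 to 400 CPM in *inc1* (median 273), with a log2 fold change of 0.34 (SE 0.055, adjusted p = 4.87e-06). *SIFa*, expressed in a few neurons of the pars intercerebralis and needed for normal sleep, was at 9.13 to 14.2 CPM in *WT* (median 11.4) and 5.58 to 11.2 CPM in *inc1* (median 8.93). Its log2 fold change was -0.36 (SE 0.0999, adjusted p = 0.0048).

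*CNMa*, whose peptide is made in the brain and in the gut, was at 3.63 to 11.8 CPM in *WT* (median 9.43) and 1.87 to 11.2 CPM in *inc1* (median 6.99). Its log2 fold change was -0.44 (SE 0.098, adjusted p = 0.000446). *NPF*, the fly relative of neuropeptide Y, was at 36.6 to 50.0 CPM in *WT* (median 45.9) and 27.3 to 45.7 CPM in *inc1* (median 37.8), a log2 fold change of -0.23 (SE 0.074, adjusted p = 0.0128). *ITP*, which encodes ion transport peptide and is expressed in a subset of clock neurons, fell from a median of 148 CPM (132 to 184) to 128 CPM (113 to 201), a log2 fold change of -0.16 (SE 0.043, adjusted p = 0.00364). *Dh44*, a diuretic hormone related to corticotropin-releasing factor that lies on the output path from the clock to locomotor rhythms, showed the smallest change called. It was at 119 to 152 CPM in *WT* (median 132) and 130 to 182 CPM in *inc1* (median 140), a log2 fold change of 0.09 (SE 0.035, adjusted p = 0.0356). *Dh31*, a calcitonin-like diuretic hormone that wakes flies before dawn, was at a median of 122 CPM in *WT* (113 to 137) and 114 CPM in *inc1* (86.3 to 138), with an adjusted p of 0.288.

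*CCHa2*, *Tk* and *AstA* are known from both gut and brain, and rose in *inc1*. *CNMa* and *NPF*, given above, are known from both as well, and fell. No full set of such precursors was drawn up, so these genes give no count for the class. *CCHa2* (chromosome 3R, 13389059 to 13395197), whose peptide is released from the gut and fat body and reports feeding state, rose most of all. It was at 127 to 193 CPM in *WT* (median 157) and 191 to 438 CPM in *inc1* (median 283), and the *inc1* libraries of ZT0 and ZT4 lay within the *WT* range while the other 10 lay above it. The log2 fold change was 0.86 (SE 0.11, adjusted p = 5.58e-08), and 0.53 in the light hours alone (adjusted p = 0.00338). *Tk*, the tachykinin precursor of brain and midgut, was at 53.8 to 71.3 CPM in *WT* (median 60.6) and 68.0 to 92.2 CPM in *inc1* (median 86.0). Its log2 fold change was 0.46 (SE 0.053, adjusted p = 4.72e-09). *AstA*, the allatostatin A precursor, which curbs feeding and promotes sleep, was at 52.4 to 83.5 CPM in *WT* (median 59.0) and 62.7 to 97.9 CPM in *inc1* (median 74.7), a log2 fold change of 0.32 (SE 0.054, adjusted p = 8.71e-06). *AstC* and *Mip*, the precursors of allatostatin C and of the myoinhibitory peptides, fell. *AstC* went from a median of 129 CPM (117 to 175) to 102 CPM (83.1 to 148), a log2 fold change of -0.36 (SE 0.060, adjusted p = 6.36e-06), and *Mip* from 133 CPM (115 to 148) to 118 CPM (99.7 to 153), a log2 fold change of -0.15 (SE 0.053, adjusted p = 0.0261).

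Among the peptide hormones of satiety, stress and water balance, *Dsk* (chromosome 3R, 4189692 to 4190260) was at 94.4 to 128 CPM in *WT* (median 103) and 67.2 to 84.7 CPM in *inc1* (median 75.9), with no overlap. Its log2 fold change was -0.47 (SE 0.050, adjusted p = 1.07e-09). *Capa* was at 61.3 to 160 CPM in *WT* (median 104) and 97.8 to 183 CPM in *inc1* (median 129), a log2 fold change of 0.40 (SE 0.079, adjusted p = 0.000110). *FMRFa*, whose peptides modulate muscle, was at 14.6 to 20.5 CPM in *WT* (median 18.2) and 14.1 to 30.7 CPM in *inc1* (median 23.9), a log2 fold change of 0.31 (SE 0.083, adjusted p = 0.00356). *Crz*, the precursor of corazonin, a stress-related relative of gonadotropin-releasing hormone, was at 59.6 to 81.9 CPM in *WT* (median 70.4) and 67.9 to 91.1 CPM in *inc1* (median 78.8), a log2 fold change of 0.18 (SE 0.068, adjusted p = 0.0420). *CCAP* was near the limit of detection. It had 25 to 49 counts per *WT* library and 12 to 35 per *inc1* library, that is 1.24 to 1.98 CPM (median 1.40) and 0.706 to 1.34 CPM (median 1.03), with a log2 fold change of -0.49 (SE 0.157, adjusted p = 0.0141).

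The largest fall in *inc1* was that of *Nplp3* (chromosome 3L, 16318024 to 16318690), a neuropeptide-like precursor named from the sequence of its peptides. It was at 27.3 to 66.9 CPM in *WT* (median 56.1) and 15.8 to 43.2 CPM in *inc1* (median 24.7). All *inc1* libraries but ZT20 lay below all *WT* libraries, of which ZT32 was the lowest. The log2 fold change was -1.16 (SE 0.13, adjusted p = 1.54e-09). The other members of this naming group, *Nplp1*, *Nplp2* and *Nplp4*, had log2 fold changes of 0.06, 0.36 and 0.21, with adjusted p of 0.288, 0.0760 and 0.123. The remaining precursors that did not pass, besides *Dh31*, were *Lk*, *CCHa1*, *Hug*, *Ms* and *Proc*, with log2 fold changes between -0.11 and 0.15. The calls of *Pdf*, *sNPF*, *CCHa2*, *Tk*, *AstA*, *Dsk* and *Nplp3* held under all 55 alternative settings, which include leaving out each library in turn. Of the other 11, *AstC*, *Capa*, *CCAP*, *Crz*, *Dh44*, *ITP*, *Mip*, *NPF* and *SIFa* did not pass in the light hours alone, nor *CNMa* and *FMRFa* on the first sampling day alone. All 18 passed with the level of the accessory gland and midgut markers in the model. Without the libraries that hold accessory gland markers, *CCAP*, *CNMa*, *Crz*, *Dh44*, *FMRFa* and *ITP* did not pass and *Ms* did, which left 13 precursors (and 2335 of the 3337 genes called). The calls of *Dh44* (log2 fold change 0.08 to 0.12 over libraries left out), *Mip* (-0.16 to -0.12) and *Crz* (0.16 to 0.22) were lost when single libraries were left out. These were *WT* ZT4, ZT8 and ZT44 and *inc1* ZT8 for *Dh44*, *WT* ZT16, ZT24 and ZT32 and *inc1* ZT12, ZT16, ZT20, ZT32, ZT36 and ZT44 for *Mip*, and for *Crz* *WT* ZT4, ZT12, ZT16, ZT32, ZT36 and ZT44, *inc1* ZT0, ZT4, ZT24, ZT28 and ZT40 and *WT-old* ZT4.

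**Figure D2:**
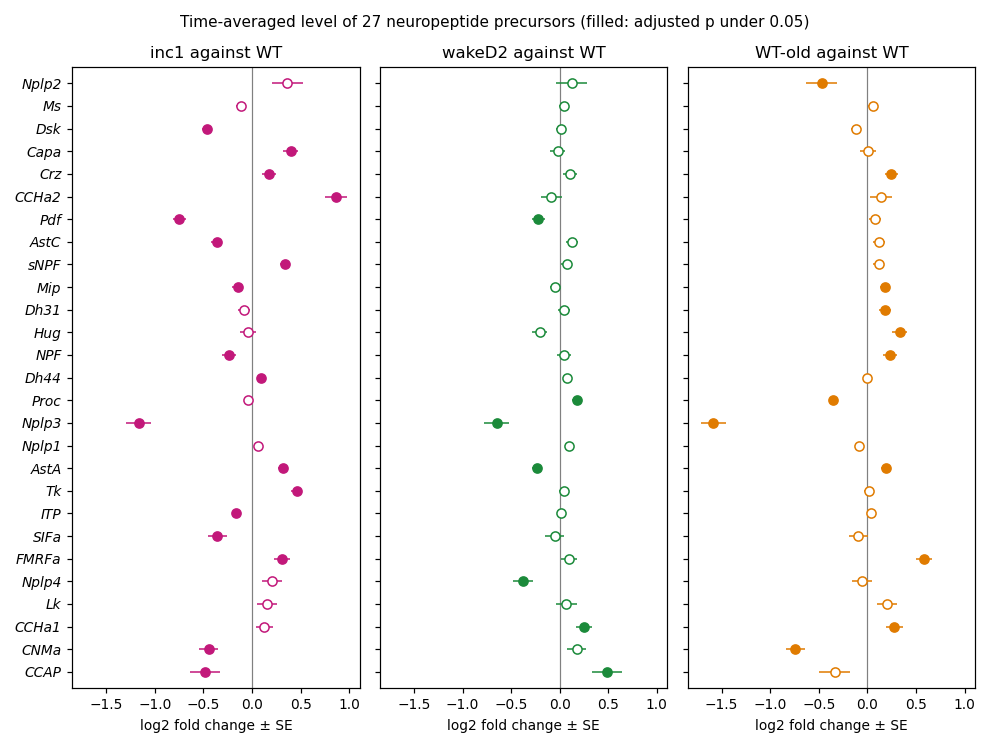
Log2 fold change of time-averaged level against *WT* for the 27 tested precursors, in order of level, with 1 SE on each side. Filled points passed an adjusted p of 0.05 by edgeR's quasi-likelihood test: 18 in *inc1*, 7 in *wakeD2* and 12 in *WT-old*; *Nplp3* lies lowest in every panel, at -1.16, -0.65 and -1.59.

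The second comparison set *wakeD2* against *WT*. *wakeD2* flies carry a mutation in *wide awake*, which acts in clock neurons at the onset of sleep. Of the 27 precursors, 3 were higher (11.1%, against 12.3% of all genes) and 4 were lower (14.8%, against 11% of all genes), shares near those of all genes. None had ranges that failed to overlap with *WT*, against 0.802% of all genes, and the median log2 fold change was 0.04, beside -0.01 over all genes. *Nplp3* again moved most. It was at 20.5 to 47.4 CPM in *wakeD2* (median 37.4), beside the 27.3 to 66.9 CPM of *WT*, a log2 fold change of -0.65 (SE 0.13, adjusted p = 0.000176). *AstA* was lower, at 43.8 to 67.4 CPM (median 47.9) beside 52.4 to 83.5 CPM in *WT*, a log2 fold change of -0.23 (SE 0.053, adjusted p = 0.00115). *Pdf* was at 64.7 to 98.0 CPM (median 75.1) beside 72.3 to 106 CPM in *WT*, a log2 fold change of -0.22 (SE 0.066, adjusted p = 0.0118). *Nplp4* was at 2.38 to 7.22 CPM (median 5.57) beside 3.45 to 10.9 CPM in *WT* (median 6.16), a log2 fold change of -0.38 (SE 0.10, adjusted p = 0.00584).

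The 3 precursors that were higher in *wakeD2* were *CCAP*, *CCHa1* and *Proc*. *CCAP* was at 1.45 to 2.85 CPM (median 2.06) beside 1.24 to 1.98 CPM in *WT*, a log2 fold change of 0.48 (SE 0.155, adjusted p = 0.0186). *CCHa1*, whose peptide acts between clock neurons and in the gut, was at 4.02 to 8.19 CPM (median 4.87) beside 3.27 to 6.08 CPM in *WT* (median 4.79), a log2 fold change of 0.25 (SE 0.086, adjusted p = 0.0285). *Proc*, the proctolin precursor, which acts on muscle, was at 99.0 to 164 CPM (median 113) beside 80.7 to 129 CPM in *WT* (median 98.4), a log2 fold change of 0.18 (SE 0.048, adjusted p = 0.00501).

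In 11 of the 12 *wakeD2* libraries RNA of other tissues was present. The accessory gland markers (*SP*, *Acp26Aa*, *Acp26Ab*, *Acp36DE*, *Acp62F* and *Acp76A*) summed to 0.0939 to 741 CPM in *wakeD2* and 0.0495 to 25.3 CPM in *WT*, and the midgut enzyme genes to 0 to 1476 CPM and 0 to 83.6 CPM. The genes *Antp*, *Ubx*, *abd-A* and *Abd-B*, expressed in the ventral nerve cord and body segments, summed to 3.76 to 15.9 CPM and 2.94 to 5.87 CPM. Ovary markers reached at most 0.227 CPM in any library. With the level of the body markers in the model, *AstA* (log2 fold change -0.22, adjusted p = 0.0380), *Nplp3* (-0.69, adjusted p = 0.00325) and *Proc* (0.22, adjusted p = 0.0168) passed, and *Pdf* (-0.16, adjusted p = 0.266), *Nplp4* (-0.25, adjusted p = 0.249), *CCAP* (0.36, adjusted p = 0.247) and *CCHa1* (0.18, adjusted p = 0.361) did not. With all libraries that had body markers left out, 1 *wakeD2* library remained beside 7 of *WT*, and no precursor passed, where *Nplp3* was at a log2 fold change of -0.83 (adjusted p = 0.932). In the light hours alone *AstA* passed (-0.28, adjusted p = 0.00621), and *Nplp3* (-0.41, adjusted p = 0.0713) and the other 5 did not. The *roX* RNAs were also lower in *wakeD2*, at 460 to 641 CPM beside 692 to 859 CPM in *WT*. All 7 precursors passed with the *Yp* level in the model. That term was fitted over all 46 libraries, in which the dark-hour *WT-old* pools lay far below all others. What the sex mix of the *wakeD2* pools contributed was therefore not tested by this fit. The call of *CCHa1* was also lost without *WT* ZT8, ZT12, ZT20 or ZT36 or *wakeD2* ZT8, ZT12 or ZT16 (log2 fold change 0.21 to 0.30 over libraries left out).

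The third comparison asked how the precursors differ between *WT* flies of Day 49 and Day 27. Of the 27, 8 were higher in *WT-old* (29.6%, against 14% of all genes) and 4 were lower (14.8%, against 14.7% of all genes). The median log2 fold change was 0.06, beside -0.01 over all genes. Since the dark-hour pools of *WT-old* were low in *Yp* RNA and high in *roX* RNA, as given above, the comparison was repeated in the light hours only (ZT0 to ZT8 and ZT24 to ZT32) and with the *Yp* level in the model. Both were chosen after these values had been seen. Of the 12 precursors, *Nplp3*, *CNMa*, *FMRFa* and *Proc* passed in both, and the other 8 passed in neither.

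*Nplp3* was at 11.5 to 26.2 CPM in *WT-old* (median 17.1), below every *WT* library. It was the only precursor of the 27 whose ranges did not overlap, as for 0.833% of all genes. The log2 fold change was -1.59 (SE 0.13, adjusted p = 4.48e-12), -1.13 in the light hours (adjusted p = 4.10e-05) and -1.29 with the *Yp* level in the model (adjusted p = 2.26e-09). In the light hours alone *Nplp3* was at 14.4 to 26.2 CPM in *WT-old* and 27.3 to 64.6 CPM in *WT*. *CNMa* was at 2.18 to 6.29 CPM (median 5.43) beside 3.63 to 11.8 CPM in *WT*, a log2 fold change of -0.74 (SE 0.099, adjusted p = 1.83e-07), and -0.63 in the light hours (adjusted p = 0.00397). *FMRFa* was at 18.6 to 38.5 CPM (median 26.9) beside 14.6 to 20.5 CPM in *WT*. Its log2 fold change was 0.58 (SE 0.083, adjusted p = 7.08e-07), and it was 0.35 in the light hours (adjusted p = 0.0319) and 0.39 with the *Yp* level in the model (adjusted p = 0.000672). *Proc* was at 67.0 to 98.1 CPM (median 83.9) beside 80.7 to 129 CPM in *WT*, a log2 fold change of -0.35 (SE 0.048, adjusted p = 4.23e-07) and -0.29 in the light hours (adjusted p = 0.0107).

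The precursor with the highest level behaved otherwise. *Nplp2* was at 2265 to 6153 CPM in *WT-old* (median 3103) and 3084 to 7004 CPM in *WT* (median 4835), a log2 fold change of -0.47 (SE 0.16, adjusted p = 0.0231). In the dark hours, the *WT-old* libraries were at 2265 to 2535 CPM and the *WT* libraries at 3509 to 7004 CPM. In the light hours the *WT-old* libraries were at 3670 to 6153 CPM and the *WT* libraries at 3084 to 6790 CPM, and the log2 fold change was -0.01 (adjusted p = 0.972). With the *Yp* level in the model it was -0.04 (adjusted p = 0.871). The call was also lost without *WT-old* ZT20, ZT36 or ZT44, all of them dark-hour libraries (-0.55 to -0.39 over libraries left out).

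The other 7 calls were all increases that did not hold in the light hours. *Hug*, whose hugin neurons link taste to feeding, was at 77.6 to 142 CPM in *WT-old* (median 120) and 81.8 to 106 CPM in *WT* (median 91.1), a log2 fold change of 0.33 (SE 0.079, adjusted p = 0.00123). *CCHa1* was at 4.07 to 9.25 CPM (median 5.17), a log2 fold change of 0.28 (SE 0.086, adjusted p = 0.0120), and 0.05 in the light hours (adjusted p = 0.825). *Crz* was at 62.4 to 109 CPM (median 83.5), a log2 fold change of 0.25 (SE 0.068, adjusted p = 0.00499). *NPF* was at 35.3 to 69.9 CPM (median 52.3), a log2 fold change of 0.23 (SE 0.074, adjusted p = 0.0154). These ranges all overlapped with those of *WT*. *AstA* (55.7 to 96.9 CPM, median 66.5), *Mip* (133 to 171 CPM, median 153) and *Dh31* (121 to 173 CPM, median 132) had log2 fold changes of 0.19, 0.19 and 0.18, with SE of 0.053, 0.053 and 0.062 and adjusted p of 0.00604, 0.00644 and 0.0234. *Pdf*, at 75.4 to 126 CPM in *WT-old* (median 89.8), had a log2 fold change of 0.08 (adjusted p = 0.410). *CCAP*, at 0.291 to 1.73 CPM (median 1.22), had a log2 fold change of -0.34 (adjusted p = 0.103), and -0.75 in the light hours (adjusted p = 0.0312). *Nplp1*, at 91.9 to 124 CPM (median 110) beside 92.6 to 138 CPM in *WT* (median 116), had a log2 fold change of -0.09 (adjusted p = 0.162), and -0.18 in the light hours (adjusted p = 0.0249). With the *Yp* level in the model *CCAP* (-0.69, adjusted p = 0.00213) and *Nplp1* (-0.16, adjusted p = 0.0165) also passed. *CCHa2*, at 116 to 246 CPM (median 159), passed in that model alone (0.38, adjusted p = 0.0101), and neither in the main fit nor in the light hours.

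**Figure D3:**
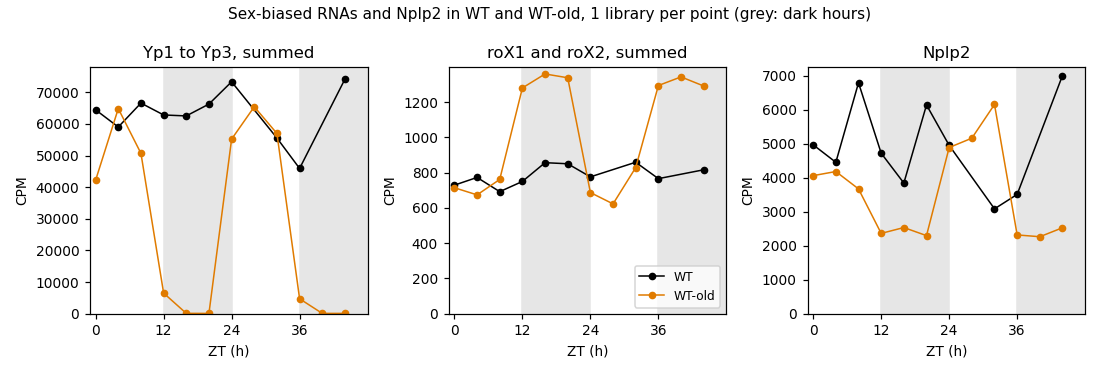
Summed CPM of *Yp1* to *Yp3* (left) and of *roX1* and *roX2* (middle), and CPM of *Nplp2* (right), by timepoint in *WT* (black) and *WT-old* (orange), with 1 library per point and dark hours in grey. In the 6 dark-hour libraries of *WT-old* the *Yp* sum was 101 to 6531 CPM, the *roX* sum 1280 to 1359 CPM and *Nplp2* 2265 to 2535 CPM.

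Whether the precursors followed a 24 h rhythm was tested within each group by edgeR's quasi-likelihood test of a 24 h cosine and sine. The amplitude given is that of a cosine fitted to log2 CPM, from its mean to its peak, and its peak time is in hours after lights-on. Of the 27 precursors, 2 were called rhythmic in *WT* (*Capa* and *Nplp3*, 7.41%, against 6.19% of all genes), 3 in *inc1* (11.1%, against 5.04%), 4 in *wakeD2* (14.8%, against 5.95%) and 5 in *WT-old* (18.5%, against 19.3%). The shares in *WT* and *WT-old* lay near those of all genes. In *WT-old* the *Yp* sum was low in all 6 dark-hour libraries and high in all 6 light-hour libraries, so it nearly follows the 24 h terms. Time of day and the makeup of the pools cannot be told apart in this group. A *WT-old* rhythm call lost with the *Yp* level in the model therefore does not show which of them it rests on. As a check of the test, *per* and *tim* were called in every group, with amplitudes of 1.66 and 1.49 in *WT*, well above any precursor. *Pdf* mRNA was called in no group, with amplitudes of 0.07 to 0.16 and adjusted p of 0.348 to 1.

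*Capa* was called rhythmic in 3 of the 4 groups, with nearly the same peak time. Its amplitude was 0.55 in *WT* (SE 0.087, peak at 8.58 h, adjusted p = 0.000250), 0.42 in *wakeD2* (SE 0.062, peak at 8.55 h, adjusted p = 0.00520) and 0.54 in *WT-old* (SE 0.097, peak at 8.51 h, adjusted p = 6.03e-05). In these 3 groups both libraries of ZT20 and ZT44 were the lowest of the group, at 61.7 and 61.3 CPM in *WT*, 73.4 and 66.4 CPM in *wakeD2* and 67.8 and 72.2 CPM in *WT-old*. In *inc1* they were at 97.8 and 113 CPM, with ZT8 between them, and the amplitude was 0.16 (SE 0.11, peak at 9.12 h, adjusted p = 0.557). The difference in rhythm between *inc1* and *WT* had an unadjusted p of 0.0217 and an adjusted p of 1, and did not pass. The calls of *Capa* in *WT*, *wakeD2* and *WT-old* held in all quasi-likelihood and DESeq2 alternatives and without any single library of the group. The rank test JTK cycle, applied with a cosine test at unadjusted p, was run only at the 10 timepoints that all groups share. It did not call *Capa*, and called *Nplp3* in *WT* and *wakeD2*, *Tk* in *inc1*, and no precursor in *WT-old*.

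*CNMa* was low in the morning. In *WT* it was at 3.63 to 4.79 CPM at ZT0, ZT4 and ZT24 and at 8.97 to 11.8 CPM at the other 7 timepoints. In *inc1* the 4 libraries of ZT0 and ZT4 of each day were at 1.87 to 3.35 CPM and the other 8 at 5.01 to 11.2 CPM. In *wakeD2* they were at 4.33 to 5.89 CPM and 7.76 to 14.7 CPM, and in *WT-old* at 2.18 to 3.02 CPM and 4.72 to 6.29 CPM. These ranges did not overlap in any group, and this grouping of times was made after the values had been seen. By the cosine test, the amplitude was 0.97 in *inc1* (SE 0.18, peak at 15.1 h, adjusted p = 0.000958), 0.73 in *wakeD2* (SE 0.13, peak at 15.7 h, adjusted p = 0.0120) and 0.62 in *WT-old* (SE 0.14, peak at 14.6 h, adjusted p = 0.0285). In *WT*, with 10 libraries, it was 0.72 (SE 0.23, peak at 14.4 h) and was not called (adjusted p = 0.0934). The *wakeD2* call was lost without ZT4 or ZT28 and the *WT-old* call without ZT0, ZT4, ZT24 or ZT28, with adjusted p of up to 0.0597 and 0.108. At the 10 timepoints that all groups share, the *wakeD2* call (adjusted p = 0.188) and the *WT-old* call were also lost, and the *inc1* call held. In edgeR's quasi-likelihood test of a difference in rhythm from *WT*, *CNMa* passed in no group. Its unadjusted p was 0.550 in *inc1*, 0.614 in *wakeD2* and 0.940 in *WT-old*. The calls thus do not set *inc1*, *wakeD2* or *WT-old* apart from *WT*. With the *Yp* level in the model the *WT-old* call was lost (adjusted p = 0.315), but in this group that level nearly follows time of day.

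*Nplp3* was called in all 4 groups, with peaks that lay late in the night or after lights-on. The amplitude was 0.40 in *WT* (SE 0.11, peak at 20.2 h, adjusted p = 0.0478), 0.38 in *inc1* (SE 0.11, peak at 20.5 h, adjusted p = 0.0304), 0.51 in *wakeD2* (SE 0.086, peak at 23.1 h, adjusted p = 0.00242) and 0.51 in *WT-old* (SE 0.10, peak at 2.18 h, adjusted p = 0.000621). The *wakeD2* and *WT-old* calls held without any single library of the group. In *WT* the call was lost without any of the libraries but ZT4 and ZT36, with adjusted p of up to 0.350, and in *inc1* without ZT4, ZT12, ZT20, ZT32 or ZT36, with adjusted p of up to 0.255. In *WT-old* the 6 dark-hour libraries were at 11.5 to 19.5 CPM and the 6 light-hour libraries at 14.4 to 26.2 CPM, and with the *Yp* level in the model the adjusted p was 0.0464.

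The remaining rhythm calls were each made in a single group. *Nplp2* in *WT-old* had an amplitude of 0.64 (SE 0.11, peak at 4.09 h, adjusted p = 0.00161), and the call held without any single library of the group. The call was lost with the *Yp* level in the model (adjusted p = 0.674), a level that in *WT-old* nearly follows time of day. *CCHa2* in *WT-old* had an amplitude of 0.33 (SE 0.11, peak at 7.08 h, adjusted p = 0.0436), also lost with the *Yp* level in the model (adjusted p = 0.452) and without any of ZT8, ZT16, ZT20, ZT28, ZT32, ZT40 and ZT44 (adjusted p of up to 0.154). *CCHa2* in *inc1* was at 191 to 241 CPM at ZT0 and ZT4 of each day and at 261 to 438 CPM at the other times, with an amplitude of 0.36 (SE 0.14, peak at 15.8 h) that was not called (adjusted p = 0.0725). *Mip* in *inc1* had an amplitude of 0.20 (SE 0.060, peak at 3.71 h, adjusted p = 0.0282), which was lost without ZT0, ZT4, ZT12, ZT16, ZT24 or ZT28 (adjusted p of up to 0.189) and with DESeq2. *Tk* in *wakeD2* had an amplitude of 0.17 (SE 0.042, peak at 9.22 h, adjusted p = 0.0411), which was lost without ZT0, ZT8, ZT16, ZT24, ZT32, ZT36, ZT40 or ZT44 (adjusted p of up to 0.180) and with the body markers in the model. *Tk* in *inc1* had an amplitude of 0.18 (SE 0.040, peak at 7.74 h, adjusted p = 0.0520).

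**Figure D4:**
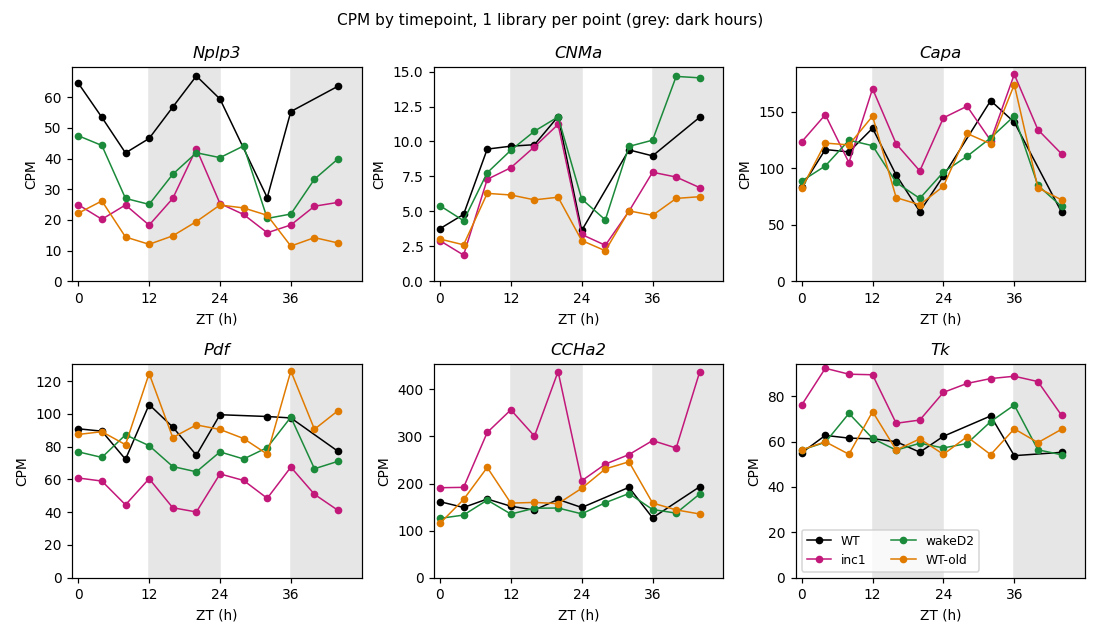
CPM of *Nplp3*, *CNMa*, *Capa*, *Pdf*, *CCHa2* and *Tk* by timepoint in *WT* (black), *inc1* (magenta), *wakeD2* (green) and *WT-old* (orange), with 1 library per point and dark hours in grey. *CNMa* is lowest at ZT0 and ZT4 of each day in every group (1.87 to 5.89 CPM), *Pdf* lies at 40.2 to 67.5 CPM in *inc1*, and *Nplp3* is lower in the other 3 groups than in *WT*.

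A difference in rhythm from *WT* was then tested directly. By edgeR's quasi-likelihood test, 0 of 27 precursors passed in *inc1* (against 0.0301% of all genes, and 2 precursors, *CCHa2* and *Capa*, at an unadjusted p under 0.05) and 0 in *wakeD2* (against 0% of all genes, and 0 precursors at an unadjusted p under 0.05). The share of all genes at an unadjusted p under 0.05 is not given here, and no other tool was run for this test. In *WT-old* 1 precursor passed, against 1.72% of all genes. This was *Nplp3* (adjusted p = 0.0484), whose fitted peak came at 20.2 h in *WT* and 2.18 h in *WT-old*, at amplitudes of 0.40 and 0.51. The call was lost when any of 38 of the 46 libraries was left out, with adjusted p from 0.0255 to 0.125 over all 46, and with the *Yp* level in the model (adjusted p = 0.911).

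The receptors of these peptides were listed with the precursors, and all 33 were tested. In *inc1* 3 were higher (9.09%, against 14.9% of all genes) and 4 lower (12.1%, against 18.5%). In *wakeD2* 1 was higher (3.03%, against 12.3%) and 3 lower (9.09%, against 11%). In *WT-old* 2 were higher (6.06%, against 14%) and 6 lower (18.2%, against 14.7%). *Pdfr*, the receptor of the *Pdf* peptide, was higher in *inc1* with a log2 fold change of 0.52 (SE 0.034, adjusted p = 5.68e-16), and its range lay wholly above that of *WT*. *Dh44-R1* (0.21, SE 0.068, adjusted p = 0.0151) and the drosulfakinin receptor *CCKLR-17D1* (0.20, SE 0.081, adjusted p = 0.0472) were also higher in *inc1*. The leucokinin receptor *Lkr* (log2 fold change -0.53, SE 0.077, adjusted p = 8.06e-07) and the pyrokinin receptor *PK1-R* (-0.45, SE 0.11, adjusted p = 0.000980) were lower in *inc1*, as were *ETHR* (-0.24, adjusted p = 0.0109) and *rk* (-0.19, adjusted p = 0.0458), the receptors of ecdysis triggering hormone and bursicon.

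In *wakeD2* the higher receptor was *CapaR*, with a log2 fold change of 0.51 (SE 0.18, adjusted p = 0.0310), and the lower ones were *SPR* (-0.24, SE 0.037, adjusted p = 5.45e-06), *CNMaR* (-0.20, SE 0.065, adjusted p = 0.0194) and *Proc-R* (-0.20, SE 0.042, adjusted p = 0.000407). *SPR*, the receptor of sex peptide and of the *Mip* peptides, was higher in *WT-old* (0.15, SE 0.037, adjusted p = 0.00162), as was *SIFaR* (0.23, SE 0.067, adjusted p = 0.00892). The 6 lower receptors in *WT-old* were *AkhR* (-0.32), *rk* (-0.27), *CCAP-R* (-0.23), *CrzR* (-0.15), *Proc-R* (-0.15) and *Pdfr* (-0.14), with adjusted p from 0.00113 (*Pdfr*) to 0.0317 (*CCAP-R*). *SPR* and *ETHR* were the 2 receptors called rhythmic in *WT* and in *inc1* (6.06%, against 6.19% and 5.04% of all genes). Their amplitudes were 0.24 (peak at 2.62 h) and 0.39 (peak at 5.36 h) in *WT*, with adjusted p of 0.00622 and 0.00413. In *wakeD2* 3 receptors were called (9.09%, against 5.95%), these and *MsR1*, and in *WT-old* 6 were called (18.2%, against 19.3%), *sNPF-R*, *Dh44-R1*, *CNMaR*, *MsR1*, *SIFaR* and *AkhR*. No receptor differed in rhythm from *WT* at the adjusted threshold, against 0.0301%, 0% and 1.72% of all genes in *inc1*, *wakeD2* and *WT-old*. At an unadjusted p under 0.05 in the same test, 0, 0 and 5 receptors did. The share of all genes at that cut is not given here, so these counts have no background to be read against.

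The list of enzymes and factors that process and release peptides held 11 genes, all tested, among them the prohormone convertase gene *amon*, its helper *7B2*, the carboxypeptidase gene *svr* and the amidating enzyme gene *Phm*, none of which passed in any comparison. In *inc1* 1 of 11 was higher (9.09%, against 14.9% of all genes) and 2 were lower (18.2%, against 18.5%), shares below or near those of all genes. The higher gene was *Pal1* (log2 fold change 0.26, SE 0.052, adjusted p = 0.000113), and the lower ones were *Fur2* (-0.22, SE 0.032, adjusted p = 6.28e-07) and *Pal2* (-0.11, SE 0.041, adjusted p = 0.0382). Of the same list, *Pal1* was higher in *wakeD2* (0.15, SE 0.052, adjusted p = 0.0267) and *Fur2* lower (-0.15, SE 0.032, adjusted p = 0.000417), each 9.09% of the list, against 12.3% and 11% of all genes. None was higher in *WT-old*, where *Pal1* (-0.24, SE 0.052, adjusted p = 0.000372), *Cadps* (-0.16, SE 0.052, adjusted p = 0.0145) and *Pal2* (-0.14, SE 0.041, adjusted p = 0.0101) were lower (27.3% of the list, against 14.7% of all genes). *dimm*, the transcription factor gene of peptidergic cells, had log2 fold changes of -0.35, -0.38 and -0.06 in *inc1*, *wakeD2* and *WT-old* (SE 0.15 in each), with adjusted p of 0.0699, 0.0628 and 0.798.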

How the data were processed

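RNA of pooled heads was sequenced in 46 libraries, and the authors deposited 1 table of raw read counts per gene. The submitters' processing notes name STAR 2.4.2a, bcl2fastq 2.20 and featureCounts, and the strand setting of the counting is not given in the sources used here. Identifiers were matched to the FlyBase names of the BDGP6.54 annotation, 17288 of 17490 directly and 17 by symbol. Genes under 1 CPM in more than 28 libraries were removed, which left 9969. Counts were TMM-normalised and fitted with edgeR 4.0.16 (quasi-likelihood), with group and 6 times of day for levels, and with a mean, cosine and sine (24 h) per group for rhythms. p-values were adjusted by Benjamini-Hochberg over all genes at 0.05. Amplitudes are of cosines fitted to log2 CPM (prior count 2). DESeq2 1.42.0 and JTK cycle (the latter at the 10 timepoints that all groups share) were alternatives, and the fits were tested on simulated data. All 34 precursors are named, in full where a test was passed, with receptors and processing genes as lists. Members and lists were chosen with earlier results of these data known. No 2 libraries of a group agreed within sampling noise (smallest chi-square per degree of freedom 6.31).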

Additional observations from a re-analysis of the deposited data

Results flagged for a closer look

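*Tk* in the *WT* library of ZT32 was at 71.3 CPM, while the other 9 *WT* libraries were at 53.8 to 62.7 CPM, so that this library lay far from the rest of its group. It was the only one of the 27 tested precursors with such a library among the 10 of *WT*, and chance alone marks about 1 group in 20. The 24 h rhythm of *Nplp3* differed between *WT-old* and *WT* by edgeR's quasi-likelihood test (adjusted p = 0.0484), with fitted peaks at 2.18 h and 20.2 h, and the difference was lost without any of 38 of the 46 libraries (adjusted p of 0.0255 to 0.125).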

How the results depend on the processing

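No call of a precursor changed direction under any alternative that was run. Of 18 level calls in *inc1*, 9 were made on the first sampling day alone, 9 in the light hours and 11 with time of day left out of the model, and of 3337 genes called in all, 1625, 1828 and 1825. Of 7 in *wakeD2*, 3, 1 and 3 were made under these settings and 3 with the body markers in the model. Over all genes, 2327 calls became 1622 on the first day, 1326 in the light hours, 1415 with time of day left out, 667 with the markers and 4963 with no filter. Without the libraries that hold body markers 1 *wakeD2* library was left, so calls of that fit are not counted here. Of 12 in *WT-old*, 5 were made on the first day, 6 in the light hours and 7 with the *Yp* level in the model, and of 2861 genes 1329, 1661 and 2753, and 1462 with time of day left out. The rhythm calls in *WT* fell from 2 to 1 under a filter of 20 counts in all, JTK cycle, the 10 shared timepoints or the *Yp* level. Over all genes, 617 calls became 543, 578, 519 and 626 under these settings. JTK cycle was itself run only at the 10 shared timepoints. The rhythm calls in *inc1* went from 3 to 1 under JTK cycle (502 genes became 339). Those in *wakeD2* went from 4 to 1 under JTK cycle and 2 at the shared timepoints (593 genes became 412 and 389), and those in *WT-old* from 5 to 0 under JTK cycle, 3 at the shared timepoints and 2 with the *Yp* level, where 1926 genes became 603, 1204 and 453. The 1 rhythm difference in *WT-old* became 0 under the 20-count filter, at the shared timepoints and with the *Yp* level, and 171 genes became 113, 95 and 1. The causes were not tested. With single libraries left out, level calls numbered 16 to 19 in *inc1*, 6 to 8 in *wakeD2* and 11 to 13 in *WT-old*, rhythms 1 to 2 in *WT*, 1 to 5 in *inc1*, 3 to 5 in *wakeD2* and 3 to 5 in *WT-old*, and rhythm differences 0 to 1 in *WT-old*. Rhythm fits with no filter could not be fitted, and the 20-count filter, the light hours and the *Yp* level were chosen after seeing the data.

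When the timepoint of collection entered as a replicate block, 16, 7 and 12 level calls were made in *inc1*, *wakeD2* and *WT-old*. Over all genes, 3337, 2327 and 2861 level calls became 3191, 2272 and 2740. Rhythm differences then numbered 1 (*Capa*, adjusted p = 0.0277 by edgeR's quasi-likelihood test), 0 and 1, where 3, 0 and 171 genes became 61, 2 and 340. The deviations of libraries of the same timepoint from a fit of group and time of day correlated with a mean r of 0.21, -0.43 and -0.09 over 10 pairs. The r was over 0.1 in 7, 1 and 5 of them, so the timepoints were not taken as pairs, and 1, 0 and 0 of 10 libraries correlated best with their own timepoint. *CCAP* rested on 5 to 67 counts per library, and the 7 untested precursors had at most 94.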

Other observations

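The libraries of ZT8 and ZT20 of both days stood apart from those of the other times in every group, a grouping made after the values had been seen and given with no test. The neuron markers *elav*, *nSyb*, *Syt1* and *brp* summed to 3275 to 3563 CPM in these *WT* libraries and 2491 to 2658 CPM in the others, to 3465 to 5007 CPM and 2554 to 2833 CPM in *inc1*, to 3235 to 4094 CPM and 2345 to 2859 CPM in *wakeD2*, and to 2890 to 3248 CPM and 1966 to 2641 CPM in *WT-old*. *Nplp4* showed the same separation. It was at 7.19 to 10.9 CPM at ZT8 and ZT20 in *WT* and 3.45 to 6.71 CPM at the other times, at 8.80 to 13.1 CPM and 3.93 to 8.22 CPM in *inc1*, at 6.46 to 7.22 CPM and 2.38 to 5.95 CPM in *wakeD2*, and at 7.86 to 10.4 CPM and 3.81 to 6.01 CPM in *WT-old*. A 24 h cosine cannot follow times 12 h apart, and *Nplp4* was called rhythmic in no group. *FMRFa* in *inc1* went the other way, at 14.1 to 17.5 CPM at ZT8 and ZT20 and 21.3 to 30.7 CPM at the other times, but its ranges overlapped in *WT* (14.6 to 18.0 CPM and 17.3 to 20.5 CPM), *wakeD2* (16.0 to 18.9 CPM and 16.5 to 25.0 CPM) and *WT-old* (18.6 to 28.9 CPM and 23.5 to 38.5 CPM). Those of *sNPF*, *Nplp2* and *Pdf* overlapped in all 4 groups.

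The times of lights-off were also singled out after the values had been seen. At ZT12 of both days *Pdf* was at 125 and 126 CPM in *WT-old*, above the 75.4 to 102 CPM of its other 10 libraries. In *inc1* these libraries were at 60.5 to 67.5 CPM and the others at 40.2 to 63.4 CPM, and the ranges overlapped, as they did in *WT* (97.6 to 106 CPM and 72.3 to 99.5 CPM) and *wakeD2* (80.6 to 98.0 CPM and 64.7 to 87.2 CPM). *Capa* was highest at ZT12 of both days in *inc1*, at 171 to 183 CPM beside 97.8 to 155 CPM at the other times, and in *WT-old*, at 146 to 174 CPM beside 67.8 to 131 CPM. In *WT* its ranges overlapped, at 136 to 141 CPM beside 61.3 to 160.0 CPM, as in *wakeD2*, at 120 to 146 CPM beside 66.4 to 127 CPM.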
